A study of Homo sapiens with 16 samples.

Results

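JURKAT, an established human leukemia line (T-cell acute lymphoblastic leukemia, T-ALL) that is widely used to study T-cell receptor signalling, was set against 15 other T-ALL lines. It is 1 of the 16 lines by its label, and the genes described are those in which it held the highest or the lowest value of all lines by a wide gap. The other lines were ALL-SIL, CCRF-CEM, DU528, HSB-2, KOPT-K1, LOUCY, MOLT-16, MOLT-4, P12-ICHIKAWA, PEER, PF-382, SKW-3, SUP-T11, SUP-T13 and TALL-1. Every culture was untreated and was harvested at 24 hours, and the total RNA of each line was read on 1 Affymetrix U133 Plus 2.0 array. The labels give neither subclone nor mutation for any line. With 1 array per line there is no replicate error, so no test was made, and a difference between JURKAT and the others cannot be told apart from a difference between these cultures or arrays. In RNA of whole cultures, fewer cells with a transcript and less of it per cell cannot be told apart.

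Values are deposited linear probe set intensities, with a table median of 42.37 over all arrays. Differences are on the scale of log2(intensity + 16). The gap is the distance from JURKAT to the nearest other line, and a gene was called set apart where the gap was 1 or more. Each of 19775 genes was represented by 1 probe set. JURKAT was set apart in 61 genes. It was the highest line in 33 of them, which is 0.167% of the genes, and the lowest line in 28, which is 0.142%. Without the threshold it was the highest line in 1025 genes (5.18%) and the lowest in 905 (4.58%). Among the set apart genes, the brighter side reached 4 times the table median (169.48) in 22 high genes (0.111% of all genes) and 16 low genes (0.0809%).

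T-ALL arises from immature T cells of the thymus. TAL1, a basic helix-loop-helix transcription factor, is silent in normal thymocytes past their early stages and binds DNA in a complex with E-proteins and LIM-only proteins when it is activated in T-ALL. Cancer-testis genes such as the MAGEA family are normally active in the male germ line and silent in most other tissues, where methylation of CG pairs in their promoters accompanies the silence. The ZNF genes with a KRAB domain form a large family of DNA-binding repressors, many of them in clusters on chromosome 19.

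The lines differed in how many genes set them apart. The other lines had between 12 and 227 high genes (median 42) and between 5 and 167 low genes (median 19). JURKAT, with 61 genes in both directions, ranked the ninth of the 16 lines, and the other lines had between 25 and 384 (median 63). Its numbers of set apart genes were therefore inside the range of the other lines.

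**Figure D1:**
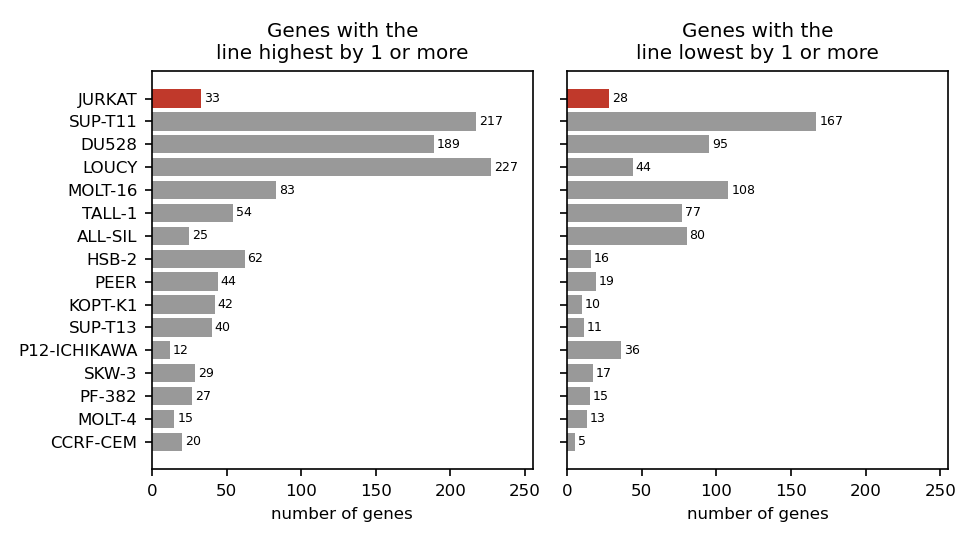
Number of genes in which each line was the highest (left) or the lowest (right) by a gap of 1 or more on the scale of log2(intensity + 16), 1 array per line. JURKAT, the top bar, has 33 high and 28 low genes, against medians of 42 and 19 in the other 15 lines.

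The label was first checked against its markers. TAL1 read 3586 in JURKAT, against a lowest of 14.7 in ALL-SIL, a median of 48.5 and a highest of 1362 in MOLT-4. It was also above 4 times the table median in MOLT-4, HSB-2, PF-382, SUP-T13, CCRF-CEM, SKW-3 and MOLT-16, at 425 or more. The presence of TAL1 alone therefore does not tell JURKAT from these lines. JURKAT also carried RNA of the T-cell receptor complex: CD3D, a subunit of that complex, read 11191, against 7095 to 14179 in the others. LCK, the kinase that starts receptor signalling, read 8753, against 942 to 14199 in the other lines. The markers of other cell types were dim, and 4 times the table median was reached in JURKAT by 0 of 8 myeloid markers, 0 of 5 NK markers, 1 of 7 B-cell markers (CD79A, 324), 1 of 6 erythroid markers (EPOR, 187) and 1 of 11 stromal markers (SPARC, 369.9). The summed intensity of the stromal markers was 761 in JURKAT, against 296 to 2907 in the others. That of the B-cell markers was 658 in JURKAT, against 427 to 2526 in the other lines.

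For 47 of the 61 genes the RefSeq table holds promoter windows. The 250 bases before the transcription start are shown for 7 of them, because they stand for the groups described below: the 3 MAGEA genes that were high, and PBDC1, ZNF140, ZNF329 and LINC00667, which were low. They are RefSeq reference sequence of build GRCh38.p14 and were not read from the lines. Letters run 5′ to 3′ on the strand of the gene, and capitals mark CG pairs. The windows are chrX:151912224-151912473 (plus strand, 1 of 5 listed) for MAGEA4, chrX:152769690-152769939 (minus strand) for MAGEA6, chrX:152733507-152733756 (plus strand, 1 of 2) for MAGEA12, chrX:76172812-76173061 (plus strand) for PBDC1, chr12:133080673-133080922 (plus strand) for ZNF140, chr19:58150790-58151039 (minus strand) for ZNF329 and chr18:5237850-5238099 (plus strand) for LINC00667.
MAGEA4: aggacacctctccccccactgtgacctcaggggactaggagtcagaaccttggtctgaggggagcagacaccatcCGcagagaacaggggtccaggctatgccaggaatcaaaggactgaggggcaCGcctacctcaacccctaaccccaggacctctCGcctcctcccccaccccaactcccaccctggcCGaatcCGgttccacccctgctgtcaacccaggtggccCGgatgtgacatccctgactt
MAGEA6: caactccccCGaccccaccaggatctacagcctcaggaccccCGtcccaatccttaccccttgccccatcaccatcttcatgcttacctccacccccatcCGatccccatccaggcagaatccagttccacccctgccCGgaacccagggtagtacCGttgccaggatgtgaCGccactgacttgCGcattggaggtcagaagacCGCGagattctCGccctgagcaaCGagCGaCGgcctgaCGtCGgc
MAGEA12: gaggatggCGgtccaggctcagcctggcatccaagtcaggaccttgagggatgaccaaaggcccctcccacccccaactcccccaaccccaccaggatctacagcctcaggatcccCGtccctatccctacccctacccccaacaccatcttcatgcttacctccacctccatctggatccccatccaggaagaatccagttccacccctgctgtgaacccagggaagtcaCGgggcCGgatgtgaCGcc
PBDC1: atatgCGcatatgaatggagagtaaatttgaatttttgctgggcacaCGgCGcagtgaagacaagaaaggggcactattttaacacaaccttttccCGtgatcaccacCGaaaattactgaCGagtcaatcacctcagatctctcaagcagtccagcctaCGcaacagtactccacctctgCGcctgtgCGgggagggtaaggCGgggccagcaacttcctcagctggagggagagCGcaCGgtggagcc
ZNF140: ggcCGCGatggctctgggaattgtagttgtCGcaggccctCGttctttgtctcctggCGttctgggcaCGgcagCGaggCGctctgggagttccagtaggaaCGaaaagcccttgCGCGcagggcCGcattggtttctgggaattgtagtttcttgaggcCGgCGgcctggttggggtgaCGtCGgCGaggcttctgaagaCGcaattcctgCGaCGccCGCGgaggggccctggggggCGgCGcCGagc
ZNF329: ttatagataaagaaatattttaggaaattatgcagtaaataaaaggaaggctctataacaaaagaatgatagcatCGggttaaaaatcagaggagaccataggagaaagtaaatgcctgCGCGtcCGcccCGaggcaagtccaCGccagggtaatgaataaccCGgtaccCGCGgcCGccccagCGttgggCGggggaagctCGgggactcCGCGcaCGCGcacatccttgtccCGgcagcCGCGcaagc
LINC00667: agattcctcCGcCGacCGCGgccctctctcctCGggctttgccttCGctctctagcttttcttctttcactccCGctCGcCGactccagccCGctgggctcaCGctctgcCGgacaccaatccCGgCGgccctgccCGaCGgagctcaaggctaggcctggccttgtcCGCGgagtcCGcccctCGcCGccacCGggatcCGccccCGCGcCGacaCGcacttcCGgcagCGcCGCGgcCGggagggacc

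The windows of MAGEA4, MAGEA12 and MAGEA6 hold 6, 5 and 15 CG pairs, and those of PBDC1, ZNF140, ZNF329 and LINC00667 hold 12, 25, 20 and 32. Over the high genes with a window (n = 21) the median was 28 CG pairs, over the low genes (n = 26) 15 and over all measured genes with a window (n = 15384) 17. A window of the same length held at least 1 CG pair in 93.4% of all RefSeq promoters. The 8 low ZNF genes had a median of 15 and the 410 measured ZNF genes a median of 17. The letters CCGGAA, the core bound by ETS factors, which itself holds a CG pair, were searched on both strands. They were found in 1 of 21 high genes, 6 of 26 low genes, 19.5% of measured genes and 14.8% of all promoters. No methylation or binding was measured.

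The clearest group among the high genes was a set of cancer-testis genes on the X chromosome. MAGEA6 had the largest gap of all high genes, reading 290.1 in JURKAT, against a lowest of 2.76, a median of 9.13 and a highest of 15.04 (HSB-2), a gap of 3.30. MAGEA4 read 348 in JURKAT, against a lowest of 4.17, a median of 8.18 and a highest of 23.6 (TALL-1), a gap of 3.20. MAGEA12 read 172 in JURKAT, against 3.99 to 17.9 (median 9.77), a gap of 2.47. All 3 lay below the table median in each of the other 15 lines, so JURKAT alone gave a signal above it. Of 7 measured MAGEA genes these 3 were set apart in JURKAT and 0 in any other line. MAGEA1 was also highest in JURKAT, at 44.2, against at most 22.8 (SKW-3), but MAGEA8, MAGEA10 and MAGEA11 read 23.8, 9.94 and 8.84 in JURKAT and were not. The probe sets of MAGEA6 and MAGEA12 are of the kind that can match several members of this near-identical family, so the split of signal between members is uncertain. In the order of measured genes MAGEA12 and MAGEA6 are neighbours, and 3 genes lie between MAGEA4 and MAGEA12. Of the genes between them, GABRA3 and GABRQ, subunits of GABA receptors, read 13.2 and 48.9 in JURKAT, against at most 24.5 and 55.8 in the others.

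PRAME, a cancer-testis antigen on chromosome 22, read 1177 in JURKAT, against a lowest of 3.46 (SUP-T13), a median of 21.3 and a highest of 251 (SUP-T11), a gap of 2.16. Unlike the MAGEA genes, it was above the table median in 2 other lines, SUP-T11 and PEER (154.0).

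GLRB, the beta subunit of the glycine receptor, and PDGFC, a growth factor of the platelet-derived family, are neighbours on chromosome 4 among measured genes. GLRB read 180.0 in JURKAT, against 9.14 to 38.6 (median 18.9), a gap of 1.84, and its 2 further probe sets gave gaps of 3.84 and 3.21. PDGFC read 146 in JURKAT, against 13.3 to 30.8 (median 19.4), a gap of 1.80. Its further probe set was much brighter, at 2135 in JURKAT, against at most 26.5 (PF-382), a gap of 5.66. Both genes thus stood apart from every other line at each of their probe sets. The 3 measured genes on each side of the pair held 0 set apart genes. GRIA2, a glutamate receptor subunit beside GLRB, read 6.98 in JURKAT, against 4.46 to 22.4. SOX11, a transcription factor of the developing nervous system, read 144 in JURKAT, against 5.41 to 40.5 (median 24.2), a gap of 1.51, and its 2 further probe sets gave 1.60 and 3.22. No other line had a SOX11 value above the table median at any of these probe sets. ADCYAP1, the neuropeptide PACAP, read 206 in JURKAT, against 1.0 to 61.5 (median 5.64), a gap of 1.52, and a further probe set gave 1.65. THY1, a surface glycoprotein that in mice marks T cells, read 209 in JURKAT, against 15.4 to 63.9 (median 31.9), a gap of 1.49, with 1.34 and 1.46 at its further probe sets. For these genes, then, every further probe set also put JURKAT highest by 1 or more.

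CABCOCO1, a coiled-coil protein associated with cilia, read 492 in JURKAT, against 3.28 to 38.9 (median 6.80), a gap of 3.21. KIF26A, an atypical kinesin, read 606 in JURKAT, against 6.48 to 69.9 (median 20.9), a gap of 2.85, and 2.78 at its further probe set. BICD1, an adaptor of the dynein motor, read 1309 in JURKAT, against 149.97 to 529 (median 394), a gap of 1.28. The BICD1 call rested on 1 probe set: the 5 further probe sets gave gaps from -0.51 to 0.48, and JURKAT was highest in 3 of them.

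RBM48, an RNA-binding protein of the minor spliceosome, stood apart from a bright level in every line. It read 3123 in JURKAT, against 235.5 to 574 (median 423), a gap of 2.41. A further probe set gave 1293 in JURKAT, against 127 to 252, a gap of 2.29. The other two put JURKAT inside the range of the lines, at 225 against 168 to 315, and at 17.7 against 2.68 to 28.0. The probe sets of RBM48 therefore disagreed, and which part of the transcript each one reads was not examined.

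KREMEN1, a co-receptor that binds Dickkopf proteins and restrains Wnt signalling, read 912 in JURKAT, against 5.57 to 252 (median 24.8), a gap of 1.79. Its 4 further probe sets were dim and gave at most 0.72. TEAD4, a DNA-binding partner of YAP in the Hippo pathway, read 179.8 in JURKAT, against 8.20 to 45.9 (median 16.9), a gap of 1.66, and 1.98 at a further probe set. KREMEN1 was also bright in TALL-1 and KOPT-K1, whereas TEAD4 was dim in all the other lines. HEY2, a repressor induced by NOTCH, read 92.3 in JURKAT, against 2.85 to 34.6 (median 9.34), a gap of 1.10, and 0.74 at a further probe set. HOXC13 and HOXB13, homeobox genes of the posterior body, were dim: 53.0 and 65.4 in JURKAT, against at most 11.2 and 17.5 in the others. SRXN1, sulfiredoxin, which repairs oxidised peroxiredoxins, read 1213 in JURKAT, against 6.94 to 539 (SKW-3) with a median of 22.3, a gap of 1.15. SUP-T11 (399) and KOPT-K1 (213) were also above 4 times the table median, so SRXN1 was a gene of several lines and not of JURKAT alone.

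The remaining bright high genes were TMEM98 (gap 1.55), GLB1L3 (1.37), MINAR1 (1.201), LINC03040 (1.19), MILIP (1.13), GNAS-AS1 (1.13) and FAM110C (1.07). JURKAT was not the highest line at the further probe sets of GLB1L3 (-0.23) and LINC03040 (-0.29). FAM110C read 573 in JURKAT, against 5.91 to 265 (MOLT-4). Of the dimmer ones, FAM78B, PYY2, KANK4, SPATA6 and SLC6A12-AS1 read between 31.3 and 138 in JURKAT, against at most 50.8. Their further probe sets gave gaps of -0.30 and -0.20 for FAM78B and of 0.75, 0.29 and -0.87 for SPATA6, and that of HOXB13 gave -0.02. FAM78B, PYY2, PDGFC, SOX11, HOXC13 and HOXB13 fall outside the naming rule and are named after their values were seen.

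**Figure D2:**
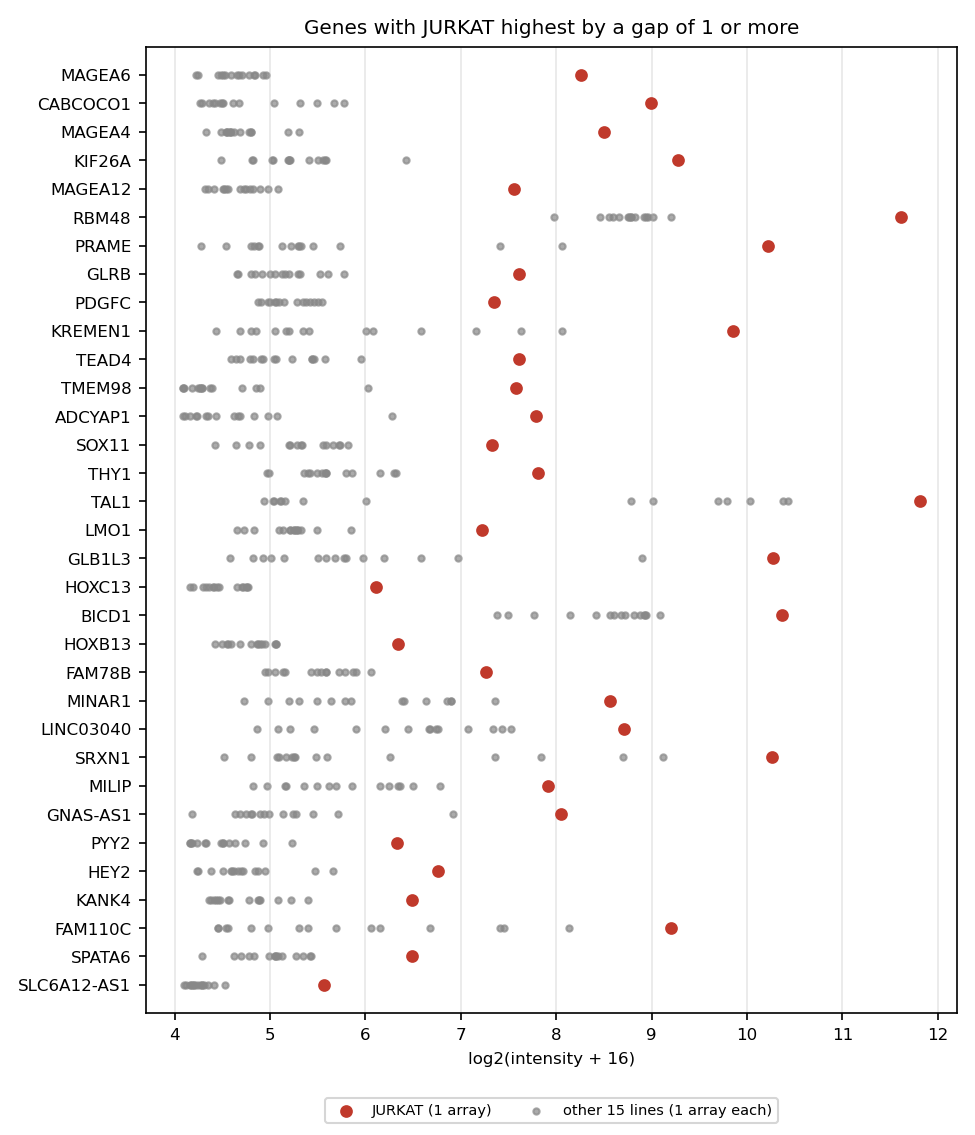
The 33 genes in which JURKAT was highest by a gap of 1 or more, one row per gene in the order of the gap, on the scale of log2(intensity + 16). The large point is JURKAT and the small points are the other 15 lines. TAL1 is spread over both ends in the other lines, while the MAGEA genes stay at the dim end in all of them.

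Among the low genes, PBDC1, an X-chromosome gene of little known function, had the widest gap. It read 12.3 in JURKAT, against 1269 (ALL-SIL) to 1964 (LOUCY) with a median of 1658, a gap of 5.503. A further probe set read 7.32 in JURKAT, against 890.4 to 1572, a gap of 5.28. The other 15 lines lay close together far above the table median, and JURKAT lay below it.

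Zinc finger genes formed the largest family. Of the 28 low genes, 8 had symbols starting with ZNF, which is 28.6%, against 2.54% of all measured genes (503 of 19775). ZNF140 on chromosome 12 read 5.42 in JURKAT, against 424 to 949.6 (median 606), a gap of 4.36. ZNF432 read 2.92 in JURKAT, against 207 to 809 (median 658), a gap of 3.56. Both were below the table median in JURKAT and at or above 4 times that median in every other line. ZNF329 read 3.03 in JURKAT, against 151 to 492 (median 309), a gap of 3.13. ZNF234 read 3.15 in JURKAT, against 113 to 306 (median 211), a gap of 2.75, and 0.83 at a further probe set. The other 4 were ZNF222 (gap 1.94), ZNF718 (1.83, with 0.10 at a further probe set), ZNF230 (1.66, with 0.78 and 0.45) and ZNF606 (1.0, with 1.07 at a further probe set). ZNF718 is on chromosome 4 and the other 3 on chromosome 19, as are ZNF432, ZNF329 and ZNF234. The probe sets of ZNF222 and ZNF230 are of the kind that can match related genes.

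Across the whole family JURKAT was the lowest line in 44 of the 503 ZNF genes, against 8 to 91 (median 23) for the other lines, which made it the third of the 16. On chromosome 19 it was the lowest in 25 of 234, against 2 to 52 (median 9). The share of ZNF genes among a line's own low genes ran from 0 to 36.4% in the other lines, and SUP-T13, with 4 of 11, was above JURKAT. MOLT-16 had 9 low ZNF genes, more than JURKAT. The median difference of all 503 ZNF genes from the other lines was -0.11 in JURKAT, and the other lines had -0.19 to 0.20, so the family as a whole was not shifted beyond the range of the lines.

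Some low ZNF genes lie close together. ZNF230 and ZNF222 are neighbours among measured genes, and 5 measured genes lie between ZNF222 and ZNF234. Of the 8 genes from ZNF230 to ZNF234 JURKAT was lowest in 4, and it was lowest in 3 of the 6 flanking genes, ZNF155, ZNF226 and ZNF227. Those 3 were lowest by at most 0.21, with ZNF226 at 242 in JURKAT, against 283 to 699. ZNF223, between ZNF222 and ZNF234, was at 14.3 in JURKAT, against 8.08 to 77.7, so the low values did not cover the whole stretch. Between ZNF606 and ZNF329 lie 3 genes, of which ZSCAN18 read 133.4 in JURKAT, against 4.65 (MOLT-16) to 1317 with a median of 946. Beyond ZNF329, ZNF544 read 35.5 in JURKAT and 32.7 in DU528, against a median of 845. These neighbours are named for their position and after their values were seen.

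**Figure D3:**
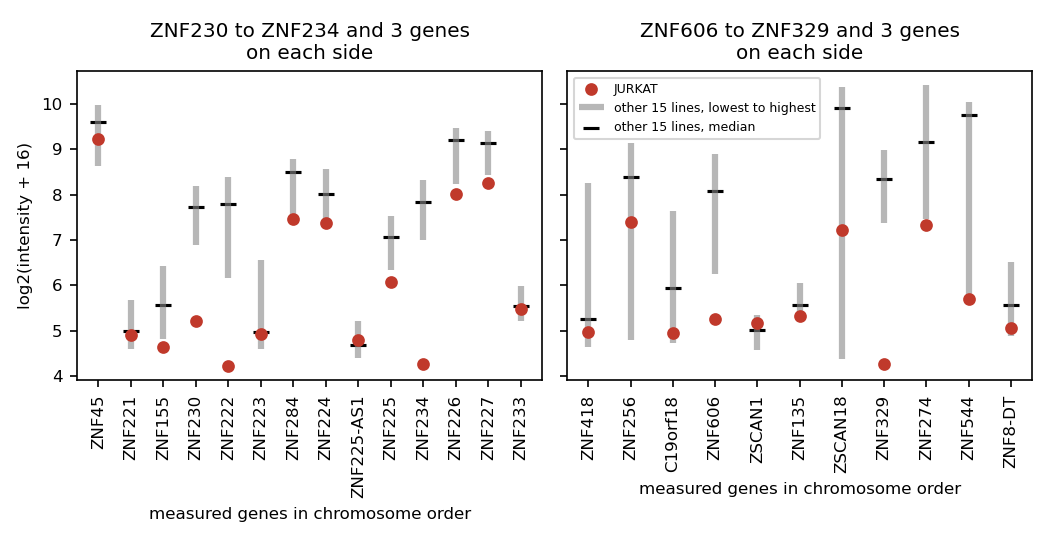
JURKAT (points) and the range and median of the other 15 lines (bars and dashes) on the scale of log2(intensity + 16), for the measured genes from ZNF230 to ZNF234 (left) and from ZNF606 to ZNF329 (right) with 3 genes on each side, in chromosome order. JURKAT lies below the range in 7 genes of the left panel and 3 of the right one, and inside it in the others.

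A pair of long non-coding RNA genes on chromosome 18 was low together. LINC00667 read 16.2 in JURKAT, against 143 (DU528) to 935 with a median of 634, a gap of 2.30. LINC00526 read 14.3 in JURKAT, against 57.7 (DU528) to 462 (median 256), a gap of 1.28. Their RefSeq starts lie 71 bases apart on opposite strands, so the window of LINC00667 above overlaps that of its partner. Of the 3 further probe sets of LINC00667, 2 had JURKAT lowest by 0.16 and 0.33, and 1 had JURKAT at 11.97 and DU528 lower at 11.6. On chromosome 5, HEIH and LINC00847, whose starts are 661 bases apart on opposite strands, read 16.7 and 14.6 in JURKAT, against at least 214 and 49.8 (PF-382) in the others. The gaps were 2.81 for HEIH and 1.10 for LINC00847. The 6 genes flanking each pair held 0 set apart genes.

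Over all 61 genes, 10 (16.4%) lay next to another set apart gene of the same direction, against 0 to 14.3% (median 7.69%) in the other lines. With at most 5 measured genes in between it was 14 (23.0%), against 0 to 25% (median 9.52%). JURKAT was thus above every other line for adjacent pairs, narrowly so over PEER (9 of 63 genes), and inside the range for the wider window. The pairs of MAGEA12 with MAGEA6 and of ZNF230 with ZNF222 rest on probe sets that can match related genes.

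TXNIP, an arrestin-like protein that binds thioredoxin and restrains glucose uptake, read 19.5 in JURKAT, against 364 (P12-ICHIKAWA) to 3214 (DU528) with a median of 1282, a gap of 3.42. Its 2 further probe sets gave 3.00 and 2.84. All of them put JURKAT far below every other line. PLIN2, a coat protein of lipid droplets, read 16.6 in JURKAT, against 173 (P12-ICHIKAWA) to 3691 (PEER) with a median of 1661, a gap of 2.53. A further, dim PLIN2 probe set had JURKAT at 29.8, against 12.8 to 49.8. SLC37A4, the glucose-6-phosphate transporter of the endoplasmic reticulum, read 21.2 in JURKAT, against 222 to 815 (median 444), a gap of 2.68. Its further probe set did not follow, with 147 in JURKAT, against 115 to 273.

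INPP5D, the lipid phosphatase SHIP1, which removes a phosphate from the product of PI3K, read 393 in JURKAT, against 928 (MOLT-4) to 3088 (HSB-2) with a median of 1637, a gap of 1.21. A further probe set gave 45.7 in JURKAT, against 84.2 to 286, a gap of 0.70, and another, dim one had JURKAT inside the range. DOCK8, an activator of CDC42 in lymphocytes, read 12.9 in JURKAT, 41.9 in PF-382 and between 644 and 4550 in the other 14 lines, a gap of 1.0. JURKAT and PF-382 were therefore low together. At the further DOCK8 probe sets the gaps were 0.68, 0.06 and -0.45, with PF-382 the lower line in the last. IL27RA, the receptor chain for interleukin 27, read 84.6 in JURKAT, against 242 to 2727 (median 993), a gap of 1.36, with 0.82 and, for a dim one, -1.31 at further probe sets. NAIP, a sensor of bacterial proteins in inflammasomes, read 111 in JURKAT, against 307 to 1362 (median 537), a gap of 1.35, with 2.43 and 0.31 at further probe sets. JURKAT was thus lowest at every NAIP probe set but not at every one of IL27RA. NFKBIA, the inhibitor of NF-kappaB, read 382 in JURKAT, against 842 to 4508 (median 1162), a gap of 1.11, while its dim further probe set had JURKAT inside the range. TAPBP, tapasin, which loads peptides on MHC class I, read 612 in JURKAT, against 1272 to 2914 (median 1848), a gap of 1.04, with 0.47 and 0.18 at further probe sets.

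TRIM24, a bromodomain ubiquitin ligase, kept a clear signal in JURKAT at 379.9, against 1638 to 3465 (median 1874), a gap of 2.06. Its further probe sets gave 1.98, 1.65 and, for a dim one, -0.67. DIAPH3, a formin that builds actin filaments, read 167 in JURKAT, against 544 to 1778 (median 1140.0), a gap of 1.62, with 1.38 and 0.18 at further probe sets. The rest were H2BC6 (gap 1.11), CARD8-AS1 (1.11, with 1.29 at a further probe set), LNP1 (1.40) and WDTC1 (1.07). JURKAT was not the lowest line at the 2 further probe sets of WDTC1, with gaps of -0.07 and -0.69. H2BC6 is one of many near-identical histone genes, whose signals its probe set may share. ZNF329, ZNF234, ZNF222, ZNF718, ZNF230, LNP1, LINC00667 and LINC00526, whose nearest line was dimmer, are outside the naming rule and are named after their values were seen.

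**Figure D4:**
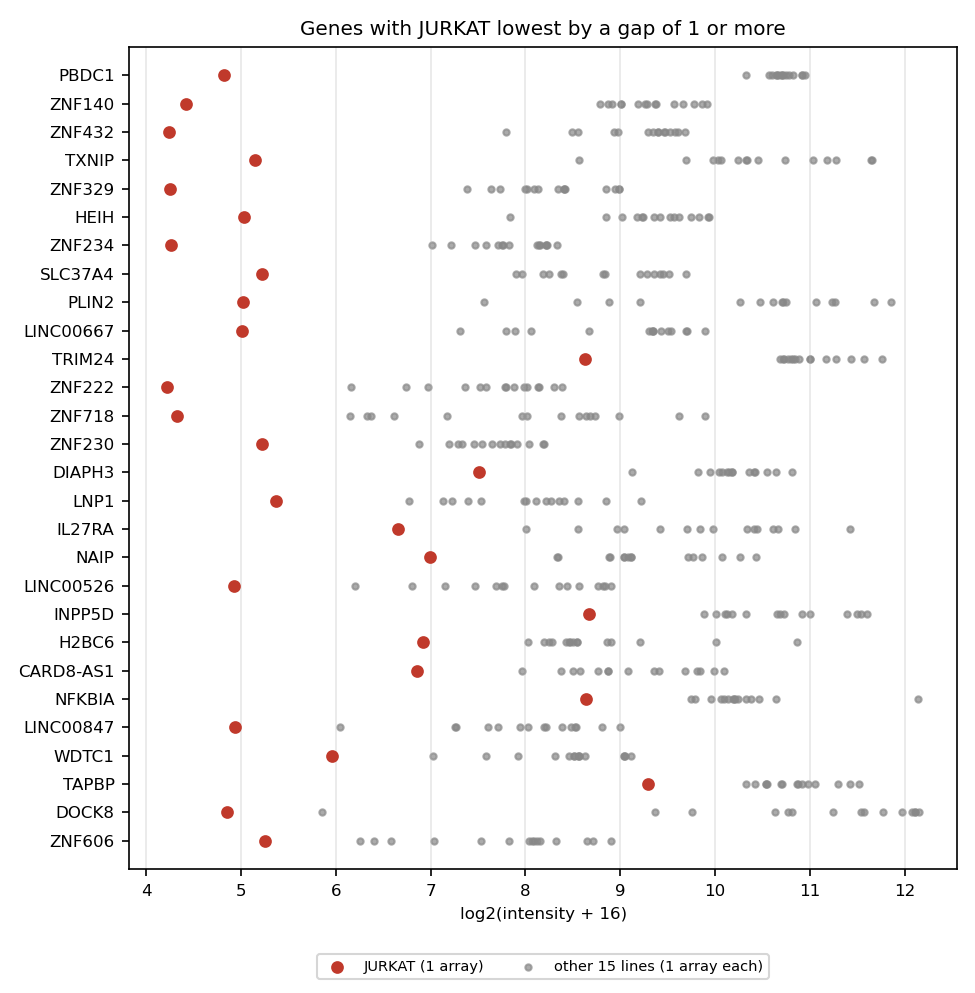
The 28 genes in which JURKAT was lowest by a gap of 1 or more, one row per gene in the order of the gap, on the scale of log2(intensity + 16). The large point is JURKAT and the small points are the other 15 lines. PBDC1 shows a narrow cluster of the other lines, and DOCK8 has 1 other line, PF-382, near JURKAT.

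Further probe sets served as a check on the array signal within the same RNA. Of the 33 high genes 17 had at least 1 further probe set, and in 13 of these at least 1 had JURKAT highest, in 8 by a gap of 1 or more. Of the 28 low genes 19 had one, and in 15 of these at least 1 had JURKAT lowest, in 7 by 1 or more. Counted by probe set, JURKAT was the extreme line in 20 of 34 for the high genes and in 23 of 33 for the low genes. Where the further probe set reached 4 times the table median in some line, JURKAT included, this was so in 10 of 14 and in 17 of 20. A further probe set of a high gene could reach that level through JURKAT alone, as that of PDGFC did (2135, against at most 26.5). The 10 of 14 is therefore favoured by the filter and adds no check to the 20 of 34.

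**Figure D5:**
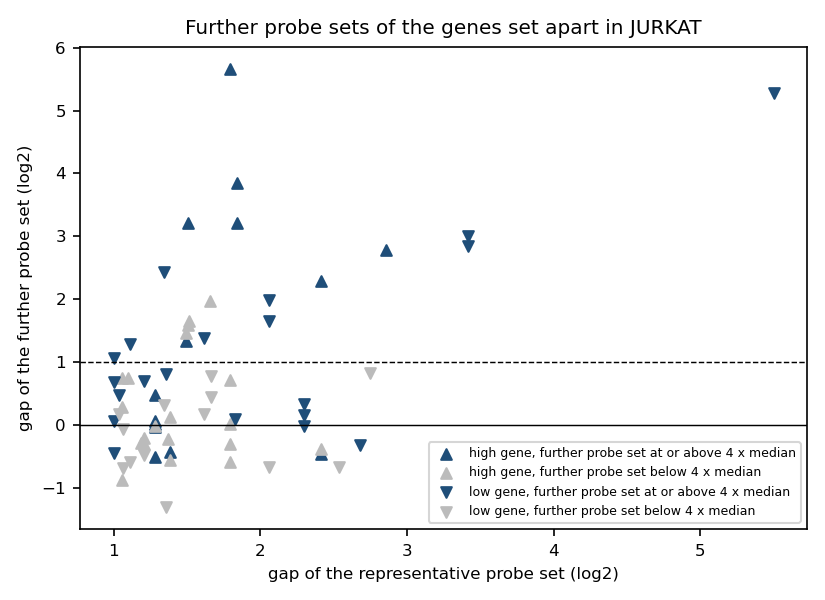
Gap of each further probe set (vertical) against the gap of the representative probe set of its gene (horizontal), both in log2 units, for the high and the low genes. Points above the solid line have JURKAT as the extreme line, and points above the dashed line have it by 1 or more. The highest point is PDGFC at 5.66 and the point at the far right is PBDC1 at 5.503 and 5.28.

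The threshold cut through a continuous range. Just inside it on the high side lay SLC6A12-AS1 (1.03), SPATA6 (1.06), FAM110C (1.07), KANK4 (1.09) and HEY2 (1.10), and just outside ACSF3 (0.99), ENHO (0.98), KCTD12 (0.96), GID4 (0.94) and UNC13B (0.94). On the low side ZNF606 (1.0), DOCK8 (1.0), TAPBP (1.04), WDTC1 (1.07) and LINC00847 (1.10) lay just inside, and FANCF (0.99), UGP2 (0.98), H2BC12L (0.97), NOD1 (0.93) and RNF208 (0.92) just outside. GID4, a receptor subunit of a ubiquitin ligase, read 1395 in JURKAT, against at most 719 in the other lines. UGP2, which makes UDP-glucose, read 1895 in JURKAT, against at least 3744.

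The TAL1 complex was uneven in JURKAT. Of its 11 measured genes 2 were set apart high, TAL1 and LMO1, and 0 low, and the median of the list (JURKAT minus the median of the others) was -0.27, against 0.02 over all genes. TAL1 had a gap of 1.39. The call did not hold at its further probe sets: one read 273 in JURKAT, against at most 374 (DU528), and the other two were dim, with gaps of 0.13 and -0.57. LMO1, a LIM-only partner of TAL1, read 133.42 in JURKAT, against 9.11 to 41.5 (median 22.0), a gap of 1.38. LMO2, the other LIM-only partner, read 12.97 in JURKAT, against 8.68 to 6805 (median 561), the second lowest value. JURKAT thus carried more RNA of LMO1 than any other line, although at a dim level, and almost no LMO2 signal. The E-proteins were inside the range of the lines: TCF3 read 2278 in JURKAT, against 2033 to 4344, and TCF12 read 4090.3, against 1205 to 5084. GATA3 (1941), MYB (6903), ETS1 (5569), LDB1 (353), LYL1 (123) and TAL2 (12.7) were also inside the range. Of the 14 measured genes of the TAL1 induced list 0 were set apart, 9 lay above the median of the others, and the list median was 0.06. Over all 19775 genes JURKAT lay above that median in 10304 and below it in 9417. SIX6, a homeobox gene of that list, read 789.7 in JURKAT, against 4.25 to 1302 (MOLT-4) with a median of 10.7. ALDH1A2, which makes retinoic acid, read 1523 in JURKAT, against 7.10 to 7332 (CCRF-CEM) with a median of 23.1.

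In the list of PI3K and its antagonists 1 of 24 measured genes, INPP5D, was set apart low and 0 high, with a list median of -0.09. PHLPP1, a phosphatase of AKT, read 77.2 in JURKAT, against 24.5 to 3578 (median 433). INPPL1, which encodes the relative SHIP2, read 71.4 in JURKAT, against 38.9 to 328 (median 167), the second lowest value. The list's phosphatases did not go one way: PHLPP2, a relative of PHLPP1, was the second highest in JURKAT at 421, against 186 to 504 (median 302), and INPP4A the fourth highest at 2318, against 957 to 4949 (median 1678). PDK1, a kinase that inhibits pyruvate dehydrogenase, was highest in JURKAT at 1989, against 2.92 (ALL-SIL) to 1548 (KOPT-K1), a gap of 0.36. PIK3CD, the catalytic subunit of lymphocyte PI3K, read 631 in JURKAT, against 373 to 9263, and PIK3R1, a regulatory subunit, read 2137, against 716 to 3142. AKT1, AKT2, PDPK1, TSC1 and FOXO3 lay within 0.20 of the median of the others. PIK3CB, PIK3CG, PIK3R5, PIK3IP1, INPP4B, TSC2, FOXO1, KLF2, S1PR1, CCR7 and IL7R were also inside the range of the lines.

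Genes of MHC class I presentation were low in JURKAT as a list. Of 14 measured genes 12 lay below the median of the others, where 9417 of all 19775 genes did. The list median was -0.91, the second lowest of the 16 lines, whose other values ran from -1.52 to 1.12. HLA-E, a non-classical class I gene, read 793 in JURKAT, against 543 to 7592 (median 3221). HLA-G read 613 in JURKAT, the lowest, against 805 to 7872, and B2M, the light chain of class I, read 12428, against 11666 to 19487. Such probe sets can share signal between near-identical class I genes. Only TAPBP passed the threshold. MHC class II genes were dim in nearly all lines: 0 of 11 reached 4 times the table median in JURKAT.

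The JAK-STAT list, which holds output genes of the pathway together with its receptors, kinases and STAT factors, was also low. The list median was -0.70, the second lowest of the 16 lines (others -0.84 to 1.67), 15 of 20 genes lay below the median of the others and 0 were set apart. Over all 19775 genes JURKAT lay below that median in 9417. STAT5B, a transcription factor of the pathway, read 615 in JURKAT, against 371 to 3310 (median 1505), and STAT5A read 209.9, against 31.6 to 5431 (median 651). SOCS1, a feedback inhibitor, read 66.7 in JURKAT, against 45.1 to 4626. PIM3, a kinase, went the other way and was highest in JURKAT at 3140.3, against 12.2 to 2719. Of the CISH, SOCS and PIM genes, SOCS3 (0.40), PIM2 (0.65) and PIM3 (0.99) lay above the median of the others. CISH (-0.35), SOCS2 (-0.44), SOCS1 (-1.45) and PIM1 (-1.21) lay below it, so these outputs did not go one way. Among 24 interferon induced genes 16 lay below the median of the others, with a list median of -0.30. IFI44, MX1 and MX2 read 29.9, 9.87 and 80.5 in JURKAT and were the second lowest there, above DU528. IRF9, part of the interferon-activated factor, was lowest in JURKAT at 104, against 120.4 to 863.

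Cortical thymocyte genes were high as a list, with a median of 2.01, the fourth highest of the 16 lines (others -2.85 to 3.08), though 0 of 11 were set apart. JURKAT lay above the median of the others in 8 of the 11 and below it in 3, against 10304 and 9417 of all 19775 genes. CD1A, a lipid-presenting molecule of cortical thymocytes, read 3046 in JURKAT, against 11.9 to 4276 (median 394), the second highest after PF-382. CD1C read 1395 in JURKAT, against 22.0 to 2933 (median 48.2), and CD1D read 884, against 2.77 to 1203 (median 77.1). JURKAT sat among the bright lines for these CD1 genes. CD1E read 4718 in JURKAT, against 3.59 to 8796 (median 226). The 3 below were CD8A, a co-receptor chain, at 23.1 in JURKAT, against a median of 188, RAG1, part of the recombinase, at 129.8, against a median of 256, and PTCRA, the pre-T-cell receptor alpha chain, at 250.2, against a median of 289. Progenitor genes had a list median of -0.16. CD44, a hyaluronan receptor, was lowest in JURKAT at 10.2, against 27.3 (MOLT-16) to 8144 (DU528) with a median of 1462, a gap of 0.73. With a constant of 1 in place of 16 the CD44 gap was 1.34, so the side of the threshold depends on the constant.

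T-cell receptor signalling genes were near the other lines, with a list median of -0.04 and 0 of 32 set apart. SYK, the kinase related to ZAP70, read 1372 in JURKAT, against 1356 in DU528 and a median of 11.1 over the other 15 lines. SOS1, which activates RAS, was lowest in JURKAT at 436, against 635 to 4162. CD28, a costimulatory receptor, read 1099 in JURKAT, against 7.16 to 1743 (median 197), and ICOS, a relative, read 40.3, against 5.88 to 2189.5. In the NOTCH1 list 1 of 21 was set apart, HEY2, and the list median was 0.12. JURKAT lay above the median of the others in 11 of the 21 genes and below it in 10. HES4, a further NOTCH target, read 1112 in JURKAT, against 3.13 to 3036 (median 141), while HES1 lay below, at 429 against a median of 699.

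Other lists held 0 set apart genes in JURKAT. The BCL2 family had the lowest list median of the 16 lines, but at -0.24, with the others between -0.19 and 0.52. In that list 4 of 15 genes lay above the median of the others and 11 below. BAX, a pro-death member, read 269.8 in JURKAT, against 172 to 908 (median 422). BIK and BID, also pro-death, went the other way, at 776 (median of the others 361) and 2968 (median 1967). MLH3, a mismatch repair gene, read 8.96 in JURKAT and 8.79 in HSB-2, against a median of 281, and MSH6 read 2098 in JURKAT, against 5.75 (HSB-2) to 4752, the second lowest. Both repair genes were lowest in HSB-2. RB1, the retinoblastoma gene, was highest in JURKAT at 6298, against 2.67 (HSB-2) to 5835, and MDM2, the ligase that degrades p53, at 2883, against 1143 to 2519. Neither was set apart, with gaps of 0.11 and 0.19. The list of death receptors and the TNF family had a median of 0.02, with 12 of 23 genes above the median of the others and 11 below. LTB, lymphotoxin beta, read 227 in JURKAT, against 60.6 to 11474 (median 2040.0). TNFRSF4 and TNFRSF10B went the other way, at 182 (median of the others 38.7) and 606 (median 283). Proliferation and housekeeping genes had list medians of -0.16 and -0.18, both the second lowest of the 16 lines. GUSB read 1501 in JURKAT, against 2066 to 5039, and MKI67, a marker of dividing cells, 1288, against 1387 to 4284. The proliferation list was mixed, with 7 of 16 genes above the median of the others and 9 below. Over all 19775 genes these numbers were 10304 and 9417. CCNB1, a cyclin of that list, was highest in JURKAT at 4949, against 2214 to 4918. Beside the shifts of these list medians stand the array measures. The upper quartile of JURKAT was 270.2, against 248 to 308 in the others (the third lowest). Its ACTB 3′ to 5′ ratio was 1.94, against 1.44 to 2.03 (the second highest). Their part in the shifts was not tested.

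Over 13310 expressed genes, centred on the gene means, JURKAT was most like MOLT-4 (Pearson's r across genes 0.22) and PF-382 (0.18) and least like ALL-SIL (-0.23). These values share the JURKAT array and the centring, and genes are not independent replicates. The line nearest to JURKAT at the 61 set apart genes was most often MOLT-4, P12-ICHIKAWA or DU528, with 8 genes each.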

How the data were processed

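Total RNA of 16 T-ALL lines was read on Affymetrix U133 Plus 2.0 arrays, 1 per line, per the labels' protocols. The table that the authors deposited holds linear intensities of probe sets, from 0.6 to 24485. How they were computed, background correction and scaling included, is not given in the sources used here. No normalization was added, and precision is limited by the number of arrays. Of 54675 probe sets, 62 were controls, 41091 named 1 gene, 1801 several and 11721 were unlisted in the platform annotation. A total of 41042 matched a RefSeq symbol of GRCh38.p14. For each gene, the probe set of highest mean log2(intensity + 16) among those naming only that gene was used. JURKAT and the other lines were grouped by label. Gaps, counts and list medians are descriptions without a test. The members and the 30 gene lists (463 genes, 426 measured, 37 not analysed here) were chosen with earlier results of these data known. The naming rule took the 30 high and 25 low genes with the largest gap and a bright side at 4 times the table median. It added the TAL1 complex and PI3K lists, every list member set apart, and up to 4 members a list with the largest difference. It also added the 5 genes just inside and just outside. Not every gene that the rule picks is described: CBS, GIMAP4, LGALS1, S1PR4 and MTAP are among those left out. Other list genes fall outside the rule and are named after their values were seen, among them MDM2, IRF9, PIM3, RAG1 and PTCRA. Alternatives changed the constant, the scaling, the probe set rule and the lines used. The gap script was run on simulated data in which 200 genes were planted with a gap above the threshold, and 200 were recovered. That outcome is set by the planting, so it checks the code only and not the calls in the real data. Python 3.11.15, numpy 2.4.6, pandas 2.3.3 and matplotlib 3.10.9 were used.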

Additional observations from a re-analysis of the deposited data

How the results depend on the processing

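The number of high genes was 33 and that of low genes 28. With a constant of 1 in place of 16 they were 41 and 64, and with a constant of 64 they were 21 and 16. With quantile normalization they were 38 and 27, and with arrays centred on their medians 33 and 27. With probe sets chosen by highest SD they were 41 and 30, with the mean of all probe sets 26 and 22, and without probe sets ending in _x_at or _s_at (17098 genes) 27 and 20. Asking for a bright side left 22 and 16. Under both scalings JURKAT stayed the extreme line in all 33 and all 28 genes. The same held under both constants, but there the order of the lines at a given probe set cannot change. Leaving out each other line in turn gave 33 to 42 high genes (42 without DU528) and 28 to 45 low genes (45 without MOLT-16), as fewer lines can only widen a gap. Without the _x_at and _s_at probe sets the gap turned to -0.57 for TAL1, -0.47 for INPP5D and -0.58 for NFKBIA, whose remaining probe sets are dim. The cause was not tested. Of 210 list medians under the alternatives 203 were classed as the same and 7 as moved. Some small ones changed sign. That of MHC class II genes went from -0.19 to 0.08 with a constant of 1. That of cytotoxic granule genes went from 0.03 to -0.02 with a constant of 64. No paired analysis was possible because each line has 1 array. A dim gene has a compressed gap, since the constant of 16 is near its intensity.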

Other observations

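Probe sets without a single gene in the annotation were not used above. Among the 11721 unlisted ones JURKAT was highest by 1 or more in 6 and lowest in 2, and among the 1801 that name several genes in 5 and 3. The widest high gap, 2.34, was that of an unlisted probe set, at 151 in JURKAT, against 3.38 to 16.9 in the others. The widest low gap, 2.44, was that of a probe set listed with several genes, at 11.2 in JURKAT, against 132 to 2290.2 in the other lines (median 671).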
